A study of Mus musculus with 5 samples.

Results

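Transcribing RNA polymerase in mouse embryonic fibroblasts (MEF) was described within their own read set: the MEF file was taken whole and the file of the embryonic stem cells was set aside, except where a place in it is given. The MEF file held 2 of the 5 samples and 6583644 of the 15200236 aligned reads of the series. The fibroblasts came from male C57Bl/6 x 129/Sv embryos at E13.5, were used at passage 2, and were grown in serum-containing medium without LIF; no treatment was given. The other 3 samples were V6.5 embryonic stem cells (MESC) of the same cross, grown with LIF on irradiated feeder cells. Both were measured by global run-on sequencing (GRO-seq), in which polymerases in isolated nuclei extend their RNA with Br-UTP and an antibody pulls out the RNA that carries it. The 2 MEF samples were pooled in the deposited file, so every value below comes from 1 library: no test between samples was possible, and intervals are exact 95% Poisson or binomial intervals that cover counting error only. The libraries carry no molecular identifiers, so copies of the same molecule may be counted more than once and the intervals may be too narrow.

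GRO-seq reads mark engaged polymerase by position and strand and do not measure stable RNA. After starting, polymerase II commonly pauses a short distance into the gene, and release of that paused polymerase into the gene body is a regulated step. Reads near the start therefore weigh paused and passing polymerase together, and reads farther in weigh elongating polymerase. Embryonic fibroblasts are mesenchymal cells that make collagenous matrix and, when cultured on a stiff surface in serum, assemble actin stress fibres.

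Each gene was represented by its longest annotated transcript. Density is given as RPKM, and 1 RPKM equals 6.57 sense reads per kb in this library, whose total was taken without mitochondrial reads. It was measured in the body (from 1000 bp after the annotated start to the end) and in the promoter window (from 50 bp before to 300 bp after the start). Of 22885 models of at least 2000 bp, 20816 whose body overlapped no other gene on the same strand were ranked. Both rankings were repeated with each position and strand counted once, since 71.3% of the reads lay at distinct positions.

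The sequences before the starts of 5 genes are shown because these genes carry the account that follows. Thbs1, Ctgf and Cyr61 were the protein-coding genes with the highest body density. Acta2 and Col1a1 stand for the contractile and matrix genes. Each run is the 150 bases before the annotated start, 5′ to 3′ on the gene's strand, from the mm9 (NCBIM37) genome. A CArG box (the SRF binding motif, counted only where it matched the consensus at every base), TATAAA and GGAATG were searched, and capitals mark TATAAA or GGAATG (the core of the TEAD motif) on either strand, so that CATTCC is GGAATG on the other strand.
Thbs1, chr2:117937462-117937611, plus strand: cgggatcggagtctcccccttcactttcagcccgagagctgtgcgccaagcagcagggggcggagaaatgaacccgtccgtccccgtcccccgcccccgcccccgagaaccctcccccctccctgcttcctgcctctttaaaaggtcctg
Ctgf, chr10:24315098-24315247, plus strand: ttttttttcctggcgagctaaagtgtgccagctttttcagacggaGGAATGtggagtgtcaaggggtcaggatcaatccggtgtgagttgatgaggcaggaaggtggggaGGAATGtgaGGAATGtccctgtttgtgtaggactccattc
Cyr61, chr3:145312950-145313099, minus strand: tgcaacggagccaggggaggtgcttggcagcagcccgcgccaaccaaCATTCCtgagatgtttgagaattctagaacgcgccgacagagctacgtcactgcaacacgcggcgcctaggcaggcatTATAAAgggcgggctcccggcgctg
Acta2, chr19:34329827-34329976, minus strand: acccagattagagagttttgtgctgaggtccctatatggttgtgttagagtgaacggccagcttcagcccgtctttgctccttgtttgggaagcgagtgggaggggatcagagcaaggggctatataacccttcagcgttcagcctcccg
Col1a1, chr11:94797388-94797537, plus strand: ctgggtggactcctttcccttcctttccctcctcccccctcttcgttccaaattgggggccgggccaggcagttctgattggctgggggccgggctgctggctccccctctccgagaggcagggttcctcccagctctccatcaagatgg
Within these windows Ctgf held 3 GGAATG motifs and Cyr61 held 1 with 1 TATAAA, and no exact match to the CArG consensus was found in the 5. CArG elements that depart from the consensus by a base, as in the known promoter elements of Acta2, were not counted. A match describes letters only, and the absence of these letters in 150 bases says nothing about a factor.

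Of the MEF reads, 51.6% lay in genes on the sense strand outside promoter windows, 3.15% in promoter windows, 1.61% in the 500 bp antisense windows upstream of starts and 6.85% on the antisense strand of genes. Another 16.3% lay within 10000 bp of a gene, and 3.85% lay farther away. These distant reads set a background of 0.110 reads per kb and strand. Of the 20816 models, 12921 (62.1%) had a body density whose lower limit was above it. Reads were spread over many genes: the 2082 models in the top 10% by body density held 33.4% of all body reads, and the 208 models in the top 1% held 6.08%. The 10408 models in the lower part of the ranking held 4.83%. Body density had a median of 0.194 RPKM, which is also the upper edge of that lower part, and the top 1% started at 8.14 RPKM.

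Marker genes were placed in the ranking as a description. Their lists were chosen with earlier results of these data known, so high places are no independent check of the label. Of 15 fibroblast markers that could be ranked, 12 were in the top 10% by body density, a class that holds 10.0% of all models, and the median percentile of the 15 was 98.5. Thbs1, which encodes the matrix glycoprotein thrombospondin 1, ranked 1, and it stood at percentile 92.2 in MESC. Col1a1, the alpha 1 chain of type I collagen, ranked 15, and Acta2, smooth muscle alpha actin and a mark of contractile fibroblasts, ranked 28. Postn, the matrix protein periostin, held 307 body reads and stood at percentile 87.8, inside the range of the other markers but outside the top 10%. Vim, the mesenchymal intermediate filament, held 1549 body reads at 29.9 RPKM. The small proteoglycan genes Lum and Dcn stood lower, at percentiles 59.4 and 52.9, with 17 and 63 body reads. Prrx1 overlapped another gene and was not ranked.

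Markers of other cell types were lower, with exceptions. Summed over each list, body density came to 270 RPKM for the 15 fibroblast markers, 0.172 for 5 embryonic stem cell markers, 0.268 for 6 endothelial markers, 0.469 for 5 epithelial markers and 0.206 for 4 adipocyte markers. Pou5f1 held 3 body reads and Nanog 2, while Zfp42, Tdgf1 and Lin28a held 0 body reads, as did the endothelial receptor gene Tie1, the muscle regulators Myod1, Myog and Myf5, and the red cell regulator Klf1. The 6 skeletal muscle markers summed to 0.471 RPKM, and the highest stood at percentile 51.8. Above the background were 4 of 6 endothelial, 3 of 6 muscle, 3 of 5 epithelial and 4 of 4 neural markers. The counts were 1 of 5 for embryonic stem cell, 1 of 4 for adipocyte and 0 of 2 for red cell markers. Over all models the share was 62.1%. All 6 ranked macrophage markers were above the background and summed to 2.58 RPKM, led by Lyz2, the lysozyme gene of myeloid cells, with 46 reads at 1.76 RPKM and by the receptor gene Csf1r with 82 reads at 0.493 RPKM; Ptprc, the pan-leukocyte marker, held 35 reads at 0.0478 RPKM. The 6 cartilage markers, all above the background, summed to 5.67 RPKM. Col2a1, the cartilage collagen, held 2.31 RPKM at percentile 93.2, above the fibroblast marker Postn, and was the only 1 in the top 10%. Sox9, the cartilage regulator, held 1.54 RPKM. Of 4 neural markers, which summed to 2.89 RPKM, only Nes was in the top 10%; this intermediate filament gene is also expressed by other immature cells. Fewer cells of a type and less transcription per cell cannot be told apart in a pooled library, and the part of these cells in the levels below was not tested.

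Thbs1 (chromosome 2, 117937612 to 117952869) had the highest body density of all ranked models, with 9658 reads over 14258 bp, or 103 RPKM (101 to 105). Its reads were spread along the gene rather than piled at single positions: the most-read position held 0.487% of them, and the gene also ranked 1 with each position counted once. The nuclear long noncoding RNA Malat1 followed with 3416 reads at 86.9 RPKM (84.0 to 89.9). Ctgf, which encodes a secreted matricellular protein and is a common readout of the YAP coactivator, held 1264 reads at 85.8 RPKM (81.1 to 90.7), an interval that overlaps that of Malat1. Cyr61, from the same protein family, held 729 reads at 55.1 RPKM (51.1 to 59.2).

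The models that followed, from Atf4 to Actg1, could not be put in order, because their counting intervals overlapped. The interval of Cyr61 overlapped theirs too, and that of Actb overlapped those of Atf4 and Actg1. Atf4, the transcription factor of the amino acid and stress response, held 54.2 RPKM (49.4 to 59.2). Neat1, the scaffold RNA of paraspeckles, held 6953 reads at 53.5 RPKM (52.3 to 54.8). Actg1, cytoplasmic gamma actin, held 50.7 RPKM (46.8 to 54.8). Actb, cytoplasmic beta actin, held 47.0 RPKM (43.8 to 50.3), and Col1a1 (chromosome 11, 94797538 to 94814356) held 4240 reads at 40.8 RPKM (39.6 to 42.0).

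A pair of long noncoding hosts of small nucleolar RNAs, which guide modification of other RNAs and are cut from introns, were also near the top. Gas5 ranked 4 with 1475 body reads at 76.5 RPKM, and 13.8% of these reads fell in annotated small RNA genes inside it. Snhg1 ranked 5 at 61.8 RPKM, and there the share was 49.3%. A read within such a gene cannot be assigned to the host transcript or to the small RNA. With reads in small RNA genes left out of every body, Gas5 stayed at rank 4 with 65.9 RPKM, and Snhg1 went to rank 17 with 31.3 RPKM; the length was not reduced.

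**Figure D1:**
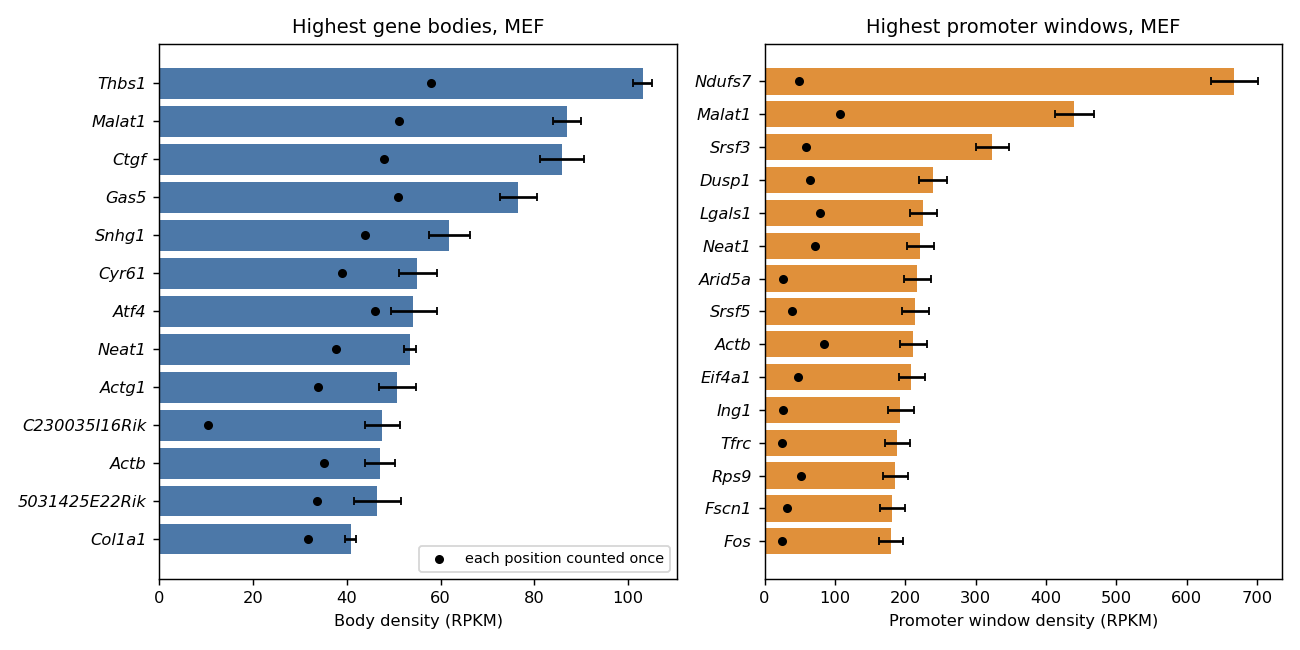
Models among the 15 with the highest body density (left) and the highest promoter window density (right) in MEF that are reported here, in RPKM on linear axes; bars count all reads with exact Poisson 95% intervals, and black dots give the RPKM with each position counted once. Thbs1 leads the bodies by both counts, while Ndufs7 leads the promoters at 667 RPKM over all reads and drops to rank 31 by distinct positions.

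Most of this order did not depend on repeated reads: 93 of the 100 highest bodies were among the 100 highest with each position counted once. Of the 7 that left, 2 had near 50% of their reads at 1 position. In C230035I16Rik, rank 12, 47.6% of body reads lay at 1 position and the rank by distinct positions was 166. The lincRNA 9330185C12Rik held the most body reads of any model, 11487, but 49.9% lay at 1 position, and it went from rank 32 to 10253. In the other 5, Hist1h2bq, Hnrnpa3, D230017M19Rik, H3f3b and Eif4g2, the most-read position held from 0.821% to 6.76% of the reads. Outside the 100 highest, Ostn, a small secreted peptide gene, went from rank 1899 to 13695, with 31.1% of 543 reads at 1 position, and Eftud1 went from 1136 to 3856, with its 2224 reads at 946 positions.

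The ranking by density also favoured short models. Of the 100 highest bodies, 57 belonged to models under 5000 bp, and their median model length was 4299 bp against 16880 bp for all ranked models. Among models of at least 5000 bp the highest included Thbs1, Malat1, Neat1, Col1a1 and Vim, followed by Rpl3, Dnm3os, Amotl2 and Acta2. In total reads, which weigh length, the order was different: after 9330185C12Rik came Lpp, a focal adhesion protein gene of 599227 bp, with 10108 reads, then Thbs1, then Cald1, the actin-binding caldesmon, with 8554 reads, Col5a1 with 8099 and Myh9, nonmuscle myosin heavy chain, with 7186.

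Genes for the collagenous matrix were high as a group. Of 13 ranked collagen genes, 10 were in the top 10% by body density, and the median percentile was 97.2. The type I chains led, with Col1a1 at 40.8 RPKM and Col1a2 at 17.5 RPKM. They were followed by Col5a1 at 8.10 RPKM, which regulates the width of type I fibrils, and by Col3a1 at 6.19 RPKM. Col14a1 was the lowest member at 0.0344 RPKM with 48 reads. Genes of collagen processing were also common in the top 10%, 10 of 17, with a median percentile of 92.4: Serpinh1, the collagen chaperone HSP47, held 14.2 RPKM, and Lox, the crosslinking lysyl oxidase, held 7.56 RPKM.

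Other matrix genes spread over a wider range. Among 19 matrix glycoproteins, 9 were in the top 10%, with Sparc at 12.7 RPKM, fibronectin (Fn1) at 9.88 RPKM and tenascin C (Tnc) at 9.84 RPKM behind Thbs1, and with elastin (Eln) lowest at 0.376 RPKM. Of 13 proteoglycans only 3 were in the top 10%. Biglycan (Bgn) held 15.4 RPKM and decorin (Dcn) 0.256 RPKM, although both are small leucine-rich proteoglycans. Among 19 matrix proteases and inhibitors, 8 were in the top 10%; the membrane collagenase gene Mmp14 held 6.12 RPKM, while Mmp3 and Mmp9 held 0.116 and 0.107 RPKM with 7 and 5 reads.

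The actin cytoskeleton formed the largest high group among the fibroblast functions. Of 29 ranked genes, 24 were in the top 10% and the median percentile was 98.9. Actg1 and Actb were followed by Acta2 (chromosome 19, 34315580 to 34329826) with 2182 reads at 25.1 RPKM (24.0 to 26.1), by the focal adhesion gene Zyx at 22.1 RPKM and by Tagln, the actin-bundling transgelin, at 21.5 RPKM. Tropomyosin 1 (Tpm1), filamin A (Flna) and Myh9 held 16.2, 15.7 and 13.6 RPKM. The smooth muscle genes of the list were not uniformly high: Cnn1, calponin 1, held 0.830 RPKM and Mylk, the myosin light chain kinase, 0.0893 RPKM.

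An exact CArG box was found within 250 bp before to 50 bp after the start, on either strand, in 7 of the 29 actin genes, among them Actg1, Tagln, Flna, Cnn2, Myl9 and Actg2. It was found in 9 of the 100 highest bodies, against 1.39% of all 20816 windows of that length. The 100 highest bodies also included 9 with TATAAA 40 to 15 bp before the start on the sense strand, against 2.03% of all models. The 100 highest promoters included 12, and the 29 actin genes 0. GGAATG was found in 11 of the 100 highest bodies and in 13.6% of all models, so it was no more common there than over all models. It was found in 9 of the 29 actin genes (31.0%). These motif shares are descriptions of the windows.

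Among 13 ranked genes of the YAP, TEAD and SRF list, 10 were in the top 10%, with Ctgf, Cyr61 and Amotl2, an angiomotin family member that binds YAP, at 85.8, 55.1 and 25.9 RPKM. The coactivator genes themselves were lower, Yap1 at 2.32 RPKM and Wwtr1 (TAZ) at 1.35 RPKM. Of 13 integrin and adhesion genes 4 were in the top 10%, led by Itga5, the alpha chain of the fibronectin receptor, at 10.5 RPKM, followed by Cd44 at 4.36 RPKM and Itgb1 at 3.95 RPKM.

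Signalling genes stood mostly in the upper part of the ranking, with median percentiles of 87.8 for the TGF-beta pathway, 87.3 for growth factor receptors and 82.2 for the insulin-like growth factor axis. All 18 ranked TGF-beta pathway genes were above the background, against 62.1% of all models. In the top 10% were 7, among them the ligand subunit gene Inhba at 9.56 RPKM, the inhibitor Smad7 at 6.58 RPKM, Tgfb3, Ski, Skil and Smad6. The receptors Tgfbr1 and Tgfbr2 held 1.22 and 1.68 RPKM, and the transducers Smad2, Smad3 and Smad4 held 1.38, 1.51 and 1.31 RPKM. Of 11 growth factor receptors 5 were in the top 10%, among them Axl at 5.48 RPKM and the PDGF receptors Pdgfrb at 3.77 RPKM and Pdgfra at 2.84 RPKM. Of 15 genes of the insulin-like growth factor axis 5 were in the top 10%. The imprinted growth factor gene Igf2 held 2.33 RPKM and its neighbour H19, a noncoding RNA, 10.3 RPKM, while Igf1 held 0.275 RPKM.

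Of 24 mesenchymal transcription factors, 9 were in the top 10% and 23 were above the background, against 62.1% of all models. Snai1, a repressor of epithelial genes, held 9.71 RPKM, Snai2 3.65 RPKM, Zeb2 2.49 RPKM and Twist1 2.39 RPKM with 18 reads in its short body. Ebf2 and Tcf21 were lowest at 0.104 and 0.0823 RPKM, the latter from 1 read. Of 22 immediate early genes, which respond to serum within minutes, 16 were in the top 10%. Ier5, Dusp1, Klf6 and Jun held 21.5, 18.5, 17.4 and 16.7 RPKM, and Myc held 9.15 RPKM, while Egr3 and Atf3 held 0.355 and 0.291 RPKM.

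Genes of protein synthesis ranked as high as those of the fibroblast functions. Of 29 ranked ribosomal protein genes 28 were in the top 10%, with a median percentile of 99.4. Rpl3, Rpl10a and Rps2 led with 28.6, 25.8 and 21.7 RPKM, and Rpl24 was lowest at 1.17 RPKM. The Rpl24 value was taken over a body of 34110 bp, set by its longest annotated transcript, against 4626 bp for Rpl3. Whether that transcript was in use was not tested. All 20 translation factor genes were in the top 10%, from Eif1 at 25.1 RPKM to Eif2s1 at 2.03 RPKM, as were 23 of 24 splicing and RNA-binding protein genes, led by Ddx5, Hnrnpa1 and Hnrnpa2b1 at 14.9, 14.5 and 14.1 RPKM. Ribosomal protein genes and Actb, Actg1 and Gapdh have many processed pseudogenes. How reads with several matches were treated is not given in the sources used here, so levels of these families are uncertain.

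Chaperones followed, with 15 of 17 in the top 10%, led by Hsp90ab1 at 20.1 RPKM. In glycolysis the count was 9 of 14, led by Gapdh at 11.5 RPKM, and in the respiratory chain 5 of 16, led by Atp5a1 at 4.30 RPKM. Cholesterol genes counted 7 of 15, led by the desaturase gene Scd2 at 6.74 RPKM. The cell cycle list had 13 of 28, with Mcm7 at 8.25 RPKM, Cdk4 at 7.77 RPKM and the CDK inhibitor Cdkn1a at 5.68 RPKM, and with Cdkn2a, which encodes p16 and p19 ARF, lowest at 0.342 RPKM. The p53 pathway had 7 of 13, with Plk2 at 13.8 RPKM, Mdm2 at 3.94 RPKM and Trp53 itself at 2.78 RPKM. Among 19 genes of pausing and elongation, 7 were in the top 10%. After Myc came Cdk9, the kinase of P-TEFb, at 3.54 RPKM, while the NELF subunits Cobra1, Th1l, Rdbp and Whsc2 held between 0.712 and 1.04 RPKM.

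**Figure D2:**
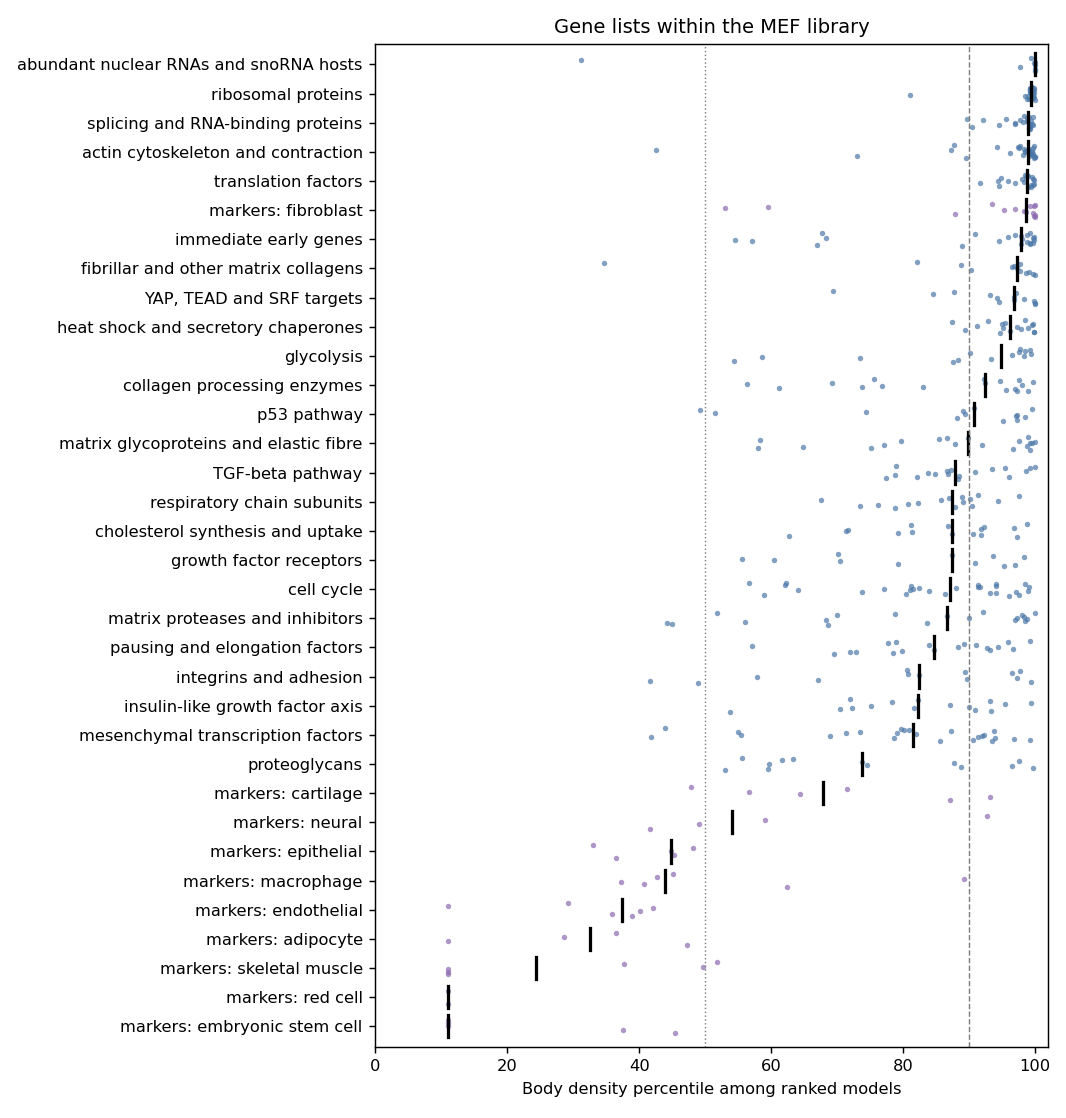
Body density percentile of every ranked member of 34 gene lists in MEF, 1 point per gene, among 20816 models; blue points are functional lists, purple points marker lists, black bars list medians, and the dotted and dashed lines mark percentiles 50 and 90. Nuclear RNAs, ribosomal, splicing, actin and translation genes and fibroblast markers crowd at the right edge, and markers of embryonic stem cells, red cells and muscle lie at the left.

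Gene classes differed in how many members were above the background. Of 17468 protein-coding models 68.2% (67.5 to 68.8) were above the background, against 55.0% (51.9 to 58.0) of 1060 lincRNAs, 22.6% (20.6 to 24.6) of 1689 processed transcripts and 8.16% (6.08 to 10.7) of 588 pseudogenes. The CpG content of the window from 250 bp before to 50 bp after the start also went with the share of models above the background. Of 9876 models with a CpG-rich start (observed over expected CpG of at least 0.6) 88.4% (87.7 to 89.0) were above the background and 16.3% were in the top 10%; of 10940 CpG-poor models these shares were 38.3% (37.4 to 39.2) and 4.31%. Of the 100 highest bodies 29 were CpG-poor, Col1a1 among them. The genes themselves are not replicates, so these intervals describe counting within this annotation. Median body length also differed, from 18644 bp for protein-coding models to 7237 bp for processed transcripts and 2340 bp for pseudogenes. It was 22632 bp for CpG-rich and 11298 bp for CpG-poor models. The part of length in these shares was not tested.

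Length went with both measures. Of 3611 models from 2000 to under 5000 bp 488 were in the top 10%, and of 762 models of 200000 bp and longer 12 were, yet fewer of the shortest models were above the background, 40.3% against 73.1%. At a given density the number of reads grows with the body, so the comparison with the background depends on length.

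The promoter ranking had other leaders. Ndufs7, a subunit of respiratory complex I (chromosome 10, 79711866 to 79719538), had 1533 reads in its promoter window, or 667 RPKM (634 to 701), and only 37 reads in its body at 0.844 RPKM. In that window 55.9% of the reads lay at 1 position, and by distinct positions it ranked 31. Malat1 held 1012 promoter reads at 440 RPKM (413 to 468) and ranked 1 by distinct positions, with 177 of the 350 positions read. Srsf3, a splicing factor, held 742 reads at 323 RPKM, the phosphatase gene Dusp1 549 at 239 RPKM, and Lgals1, the galactose-binding galectin 1, 518 at 225 RPKM.

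Position piles mattered more here than in bodies. Only 56 of the 100 highest promoters were among the 100 highest by distinct positions. In Arid5a, rank 7, 70.6% of 497 promoter reads lay at 1 position, in Fscn1, the actin bundler fascin, 70.2% of 416, and in Ing1 50.0% of 444. Over the 2990 promoters with at least 20 reads (14.4% of models), the most-read position held a median of 11.4% of the reads, and in 26 it held over 50%. Counted by distinct positions, Nat10 with 157, Thoc6 with 141, Actb with 138, Lgals1 with 130 and Neat1 with 118 followed Malat1. A true pause at 1 base and repeated copies of 1 molecule look the same in these files, and which it was in each gene was not tested.

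The most-read position of these 2990 promoters lay a median of 64 bp after the annotated start (quartiles 26.3 and 123 bp). Around starts with no other gene's start within 2000 bp, models in the top 10% by body density had their sense peak in the 50 bp bin that begins 50 bp after the start, with 83.0 distinct positions read per kb and gene. Models from percentile 50 to 90 peaked in the same bin at 53.6, and models below percentile 50 reached 3.25.

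**Figure D3:**
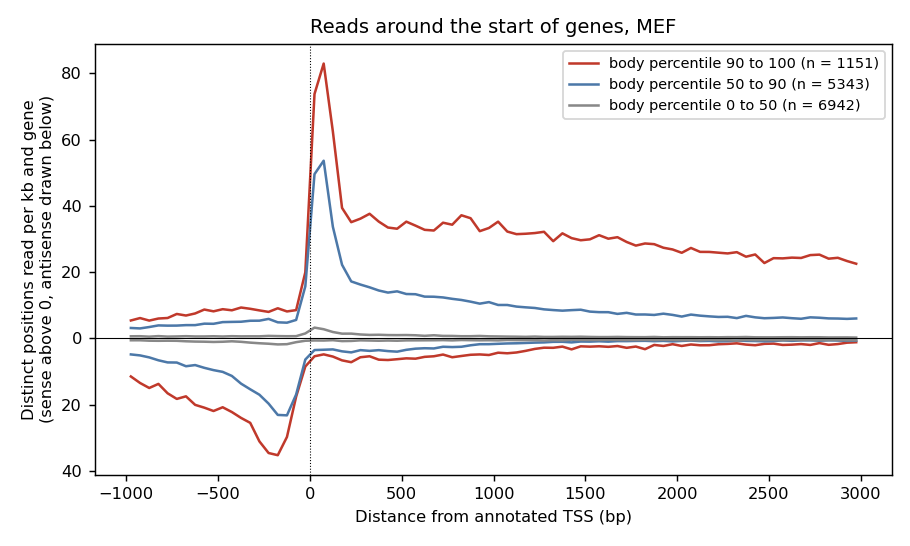
Distinct positions read per kb and gene in 50 bp bins from 1000 bp before to 3000 bp after annotated starts in MEF, sense above the zero line and antisense drawn below it, for models of at least 5000 bp with no other start within 2000 bp, by body density percentile. The peak just after the start stands in all 3 classes, and only in the highest class does the sense line beyond it stay above 20 to the edge of the plot.

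Promoter and body ranks were related across all models and much less so among well-read genes. Spearman's rho was 0.77 over all 20816 models, 0.50 over the 12921 above the background and 0.21 over the 2788 with at least 20 reads in each window; by distinct positions the last value was 0.20. These are descriptions across genes, which are not independent replicates, and both windows share the library and its depth. Over all models 4571 bodies and 9274 promoter windows held no read, and such ties can raise rho. Only 14.4% of models had 20 promoter reads, and so narrow a range can lower it. The part of these limits in the fall of rho was not tested. Of the 2054 models in the top 10% by promoter density (9.87%; ties set the number) 684 were also in the top 10% by body density. Of the 100 highest bodies 23 were among the 100 highest promoters.

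In 2688 of the 2788 genes (96.4%) promoter density was at least 2 times body density, and in 1759 (63.1%) at least 10 times; the median ratio was 13.3 (quartiles 7.39 and 24.4). Requiring 20 promoter reads, or 8.70 RPKM, selects genes with high promoters. Over all 12921 models above the background the shares were 63.7% and 25.5%. The ratio was lower where the body was higher, as body density is its denominator. Its median was 5.37 for the top 10% of bodies, 18.0 for percentiles 50 to 90 and 98.8 for the 45 genes below percentile 50. The required promoter density of 8.70 RPKM also sets a floor to the ratio. Bodies below percentile 90 were under 1.83 RPKM, so all tested genes there had to reach 2 times. In the top 10% of bodies, where this was not fixed, 788 of 888 genes (88.7%) reached it. Longer models had higher ratios, with a median of 5.84 from 2000 to under 5000 bp and 26.9 at 200000 bp and longer. The 20 body reads required ask for a higher density in a short body, so short models entered only with denser bodies. Of the shortest class 296 of 3611 models entered, and of the longest 36 of 762. The part of this filter in the length trend was not tested.

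**Figure D4:**
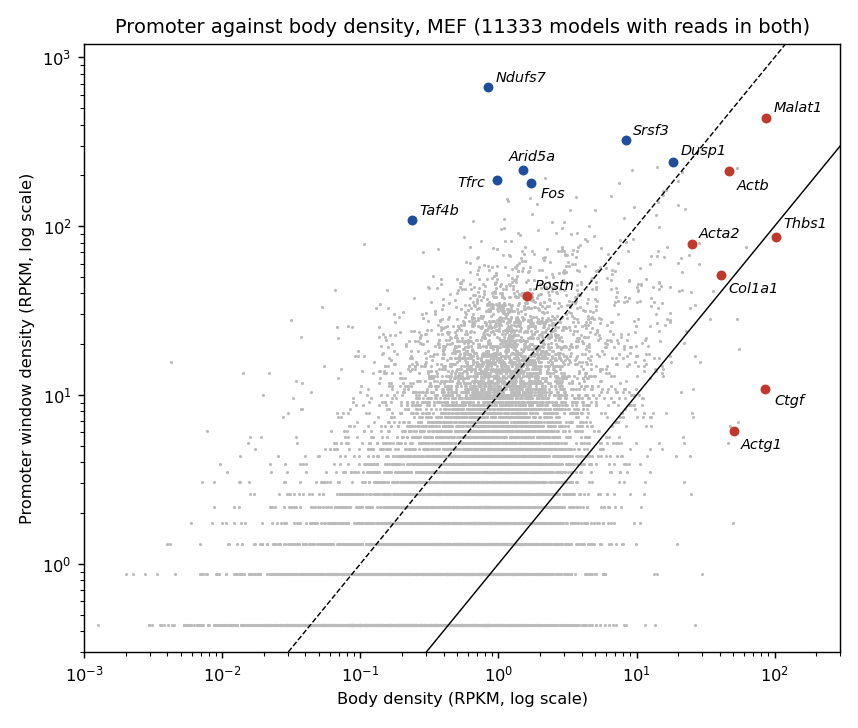
Promoter window density against body density in MEF, both in RPKM on log axes, for the 11333 models with reads in both windows; the solid line marks equal densities, the dashed line a promoter 10 times the body, red points are genes named among the high bodies and markers, and blue points genes named for their promoter. Ctgf, Actg1 and Thbs1 lie below the solid line, and Ndufs7, Tfrc, Arid5a, Fos and Taf4b lie far above the dashed line.

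In some genes promoter density far exceeded body density, and the size of the ratio depended on whether repeated reads were counted. Over the 2788 genes the median by distinct positions was 9.63. Ndufs7 had the highest ratio over all reads, 790 (570 to 1126), an interval that overlaps that of 4933427G17Rik, whose ratio was 735. By distinct positions Ndufs7 had a ratio of 41.7 and ranked 125, behind Pate2 at 427 and 4933427G17Rik at 230. Taf4b, a TFIID component, had a ratio of 456 (375 to 556), from 249 promoter reads and 181 reads spread over a long body, and 104 by distinct positions. Mpp7 had a ratio of 251 from 80 promoter and 253 body reads and 112 by distinct positions, and 9030617O03Rik one of 244 from 161 and 220 reads and 87.1 by distinct positions. In Mpp7 and 9030617O03Rik the long body thus held more reads than the promoter.

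The ratios of 2 other well-read promoters rested largely on repeated reads. Tfrc, the transferrin receptor gene that supplies iron, had 432 promoter reads, 146 body reads and a ratio of 193 (160 to 235), but 19.3 by distinct positions. Fos, the classic immediate early gene, had 412 promoter reads at 41 positions and 27 body reads, a ratio of 104 (70.4 to 160) that fell to 10.3 by distinct positions, near the median of all tested genes. Over all reads Dusp1 had 12.9, Jun 4.48 and Egr1 1.44, and by distinct positions they had 3.39, 2.36 and 1.13. Within the immediate early list, the 14 genes with enough reads in both windows had a median ratio of 3.73 over all reads. Hexim1, the P-TEFb inhibitor, and Ccnt2, a P-TEFb cyclin, had ratios of 35.0 and 32.5, and 15.95 and 14.9 by distinct positions. The high ratios of Xrcc4, Pate2, Gm10785 and 4933427G17Rik lay at starts with another gene's start within 2000 bp, whose reads the windows cannot separate.

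The opposite pattern, body above promoter, was found in 25 of the 2788 genes (0.897%). Ctgf was lowest, with 25 promoter reads and a ratio of 0.127 (0.0817 to 0.188). Cyr61 followed at 0.340, Amotl2 at 0.420, the ferritin heavy chain gene Fth1 at 0.499, and further down Tgfb1i1, the focal adhesion protein Hic-5, at 0.792 (0.479 to 1.24), whose interval includes 1. Thbs1 had 198 promoter reads and a ratio of 0.835 (0.722 to 0.961). Ctgf, Cyr61 and Thbs1 also had another gene's start within 2000 bp, whereas Amotl2, Fth1 and Tgfb1i1 had none. The lowest 3 were all from the YAP, TEAD and SRF list, in which 7 genes had enough reads and a median ratio of 2.54. Ctgf and Cyr61 are short models, of 3242 and 3015 bp, and the median ratio from 2000 to under 5000 bp was 5.84.

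Other high bodies had too few promoter reads for that set. Actg1 had 14 promoter reads against 617 body reads, Atf4 16 against 483 and Vim 2 against 1549. Of the 2082 models in the top 10% by body density, 94 had no promoter read at all, among them Gas5, Fbn1 with 4893 body reads and Rps2 with 371. Actg1, Gas5 and Rps2 had another gene's start within 2000 bp, whereas Atf4 and Vim had none. The window sits at the start of the longest annotated transcript, and whether that start was the one in use was not tested gene by gene.

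Matrix, contractile and ribosomal genes had lower median ratios than the 13.3 of all tested genes: 4.17 for 8 collagens, 4.23 for 18 actin genes and 2.32 for 22 ribosomal protein genes. The median of the top 10% of bodies, where most of these genes stand, was 5.37. For models from 2000 to under 5000 bp it was 5.84, and the part of model length in these list medians was not tested. Col1a1 had 1.26 (1.04 to 1.51) and Acta2 3.14 (2.68 to 3.66). Within the collagens the ratio was not uniform: Col5a2 had 18.7 and Col3a1 11.1, and Postn among the markers had 24.0 (18.7 to 30.4), although 51.7% of the 89 promoter reads of Postn lay at 1 position. By distinct positions the ratio of Col5a2 was 5.64, that of Col3a1 4.74 and that of Postn 5.55. Respiratory chain genes had a median of 12.5 for 7 genes and cell cycle genes 11.6 for 12, both below the 13.3 of all tested genes, and pausing factors stood above it with 17.6 for 9.

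The profiles along single genes show the same contrast. In Thbs1 the first 500 bp held 249 reads and the 28 body bins of 500 bp held from 138 to 656, with a median of 304. Col1a1 and Acta2 were uneven, with body bins from 16 to 363 and from 5 to 316. In Tfrc the first bin held 433 reads, 73.5% of all sense reads of the gene, while its 45 body bins had a median of 2; in Arid5a it held 497, or 76.6%, against a median of 4.

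**Figure D5:**
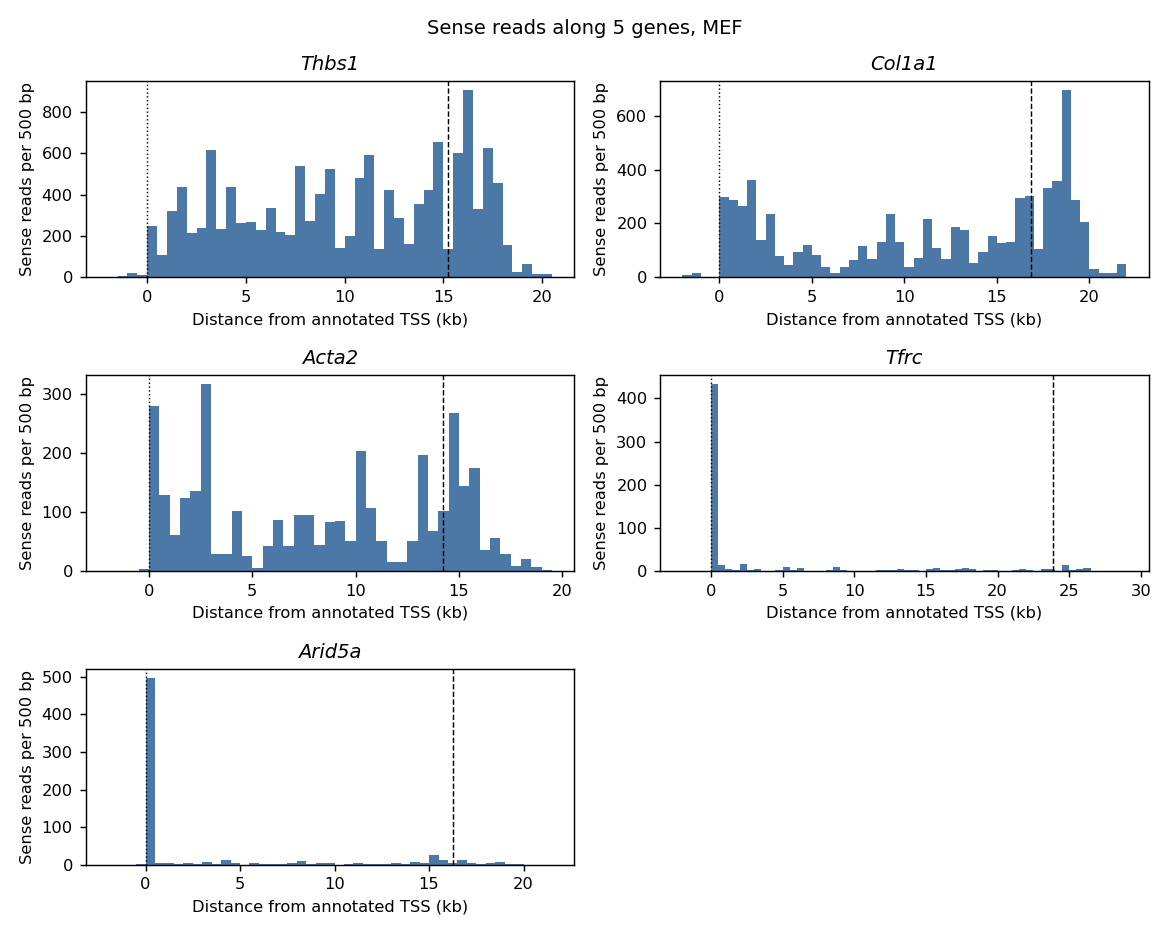
Sense reads per 500 bp along Thbs1, Col1a1, Acta2, Tfrc and Arid5a in MEF, with distance from the annotated start in kb on a linear axis; the dotted line is the start, the dashed line the annotated end, and each panel has its own vertical scale. Reads fill Thbs1, Col1a1 and Acta2 and run past their ends, whereas in Tfrc and Arid5a the first bin, with 433 and 497 reads, stands over a low body.

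Polymerase did not end at the annotated end, a measure added after the profiles had been seen. Of 1709 models in the top 10% with no other gene on the strand in the next 5000 bp, 1173 (68.6%) had a higher density in the 3000 bp after the end than in the body. Their median ratio was 1.42 (quartiles 0.868 and 2.17). From percentile 50 to 90, with at least 20 body reads, it was 4728 of 6198 (76.3%) with a median of 1.68, so this was not particular to the highest bodies. Polymerase is known to run past the cleavage site before it is released. The ratio was 2.58 in Actg1, 2.44 in Col1a1, 2.06 in Actb and 1.51 in Thbs1, which held 3076 reads there, and 0.644 in Ctgf. These reads are not in the body densities above.

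Upstream of the start, polymerase was also found on the opposite strand, as is common at mammalian promoters. Over 1963 promoters with at least 20 promoter reads and no other start within 2000 bp, the 500 bp antisense window held 25.5% (25.3 to 25.7) of the reads of both windows, 35244 against 102895. Promoters with more reads weigh more in that pooled share, and the median per promoter was 15.4%. The pooled share was 27.6% (27.3 to 27.9) at CpG-rich and 15.3% (14.8 to 15.7) at CpG-poor starts, with medians per promoter of 18.5% and 7.73%, and 263 promoters had no antisense read. At Ndufs7 the antisense window held 1765 reads, more than the promoter itself. Col1a1, with a CpG-poor start, had 29 antisense against 118 promoter reads, and Itga5, also CpG-poor, had 24 against 23. The antisense peak of the top 10% of bodies lay in the bin that begins 200 bp before the start, at 35.3 distinct positions per kb and gene.

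The highest MEF bodies were mostly high in the MESC library too. Of the 100 highest, 63 were among the 100 highest there and 91 in its top 10%; Acta2 was the only member below percentile 50, with 15 body reads and percentile 42.4 there. The medians of the housekeeping lists stood at like percentiles in both libraries, for ribosomal proteins 99.4 in MEF and 99.6 in MESC and for translation factors 98.7 and 99.1. The median of the collagens was 97.2 in MEF and 40.0 in MESC, and that of the actin list 98.9 and 88.7. Each library is a single pool, so these pairs of values have no replicate check. The MESC samples were grown on feeder cells, and the part of feeder cell reads in the MESC percentiles was not tested.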

How the data were processed

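Mapped GRO-seq reads of 2 MEF samples were analysed, with those of 3 MESC samples as a reference for rank. Per the labels' protocols and the series design text, the authors aligned reads with Eland to mm9 and removed reads similar to rRNA; per the file headers each file pools the libraries of its cell type. The deposited files hold 1 line per read, so the unit is a raw read count. For the Eland version, and for how duplicates and reads with several matches were handled, nothing is given in the sources used here. Of every 400th MEF read, 95.5% matched NCBIM37 with at most 2 mismatches when the listed position was taken as the 5′ end, counted from 1.

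Reads were counted by 5′ end in windows of GENCODE models with Python 3.11.15, numpy 2.4.6 and scipy 1.17.1, and scaled to 6571116 reads outside the mitochondrial genome. Models whose body overlapped another gene on the strand were left out, small RNA genes not counted. Intervals are exact Poisson, Clopper-Pearson or conditional binomial ones at 95%. With 1 library there was no test across samples. The background call and the ratio interval were tried only on simulated Poisson counts, which lack the repeated positions of these reads. Percentile is the share of models with a lower density, ties split.

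The gene lists (34, with 511 genes; 488 of 531 entries ranked, 2 placed by synonym, 5 symbols unmatched) and the rule for named genes were chosen with earlier results of these data known. The rule took the 15 highest bodies and promoters by all reads and by distinct positions, the 8 highest and lowest ratios, the 5 largest falls in rank, the 4 marker genes, and up to 4 highest and 2 lowest members of each list; other genes were named after their values were seen. Signal tracks were not used here. Some items chosen by the rule are not reported here.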

Additional observations from a re-analysis of the deposited data

Results flagged for a closer look

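Reads outside the gene windows stood out in 2 places that no ranking used. The mitochondrial genome held 12528 reads, 0.190% of the MEF library. The 2 loci similar to ribosomal DNA, on chromosomes 17 and 13, held 1080553 reads, 16.4% of the library, although the series design text says that reads similar to rRNA were removed. These reads stayed in the scaling total and lower every density by the same factor, which changes no rank.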

How the results depend on the processing

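No paired analysis was possible because the samples of each cell type were pooled in their file; for the same reason leaving out a replicate could not be run. Of the 100 highest bodies, 60 stayed among the 100 highest with the body taken from 3000 bp, which leaves out models too short for it. With models of at least 5000 bp only, 43 stayed. This was the most that could stay, since 57 of the 100 were shorter. Of the 100 highest promoters, 56 stayed with each position counted once. Spearman's rho over genes read in both windows was 0.17 for models of at least 5000 bp and 0.25 with at least 5 reads in each window.

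The share of genes with promoter density at least 2 times body density was 97.5% with the body from 3000 bp, 97.9% for models of at least 5000 bp, 97.3% with the start that had the most reads, 98.7% and 91.5% with promoter windows of 50 bp before to 150 bp after and 300 bp before to 300 bp after, and 88.8% and 97.5% with at least 5 and 50 reads. The share at 10 times or more was 53.5% by distinct positions, 60.3% with at most 3 reads per position, 60.5% and 66.4% with the body from 500 and 3000 bp, 67.2% for models of at least 5000 bp, 83.0% and 40.2% with the shorter and longer promoter window, and 40.7% and 74.9% with at least 5 and 50 reads. The antisense share was 26.1% by distinct positions, 25.8% with at most 3 reads per position, 26.5% for models of at least 5000 bp, 24.8% with the start that had the most reads, and 24.8% and 24.9% with the shorter and longer promoter window. With the ribosomal DNA-like loci outside the total, Thbs1 stood at 123 RPKM.

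The number of bodies above the background kept within 1.5 times of 12921 in all 11 alternatives. List medians shifted by less than the SD of their members in 320 cases and by more in 19, and named genes' percentiles stayed about within their counting interval in 441 cases and left it in 29. The settings on small RNA genes were added after the data had been seen. Depth limits low genes: 4571 bodies and 9274 promoter windows held no read.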

Other observations

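Polymerase on the sex chromosomes matched the male origin given in the labels. The Y-linked genes Uty, Ddx3y, Eif2s3y and Kdm5d held 416, 153, 107 and 99 body reads, whereas Xist, the RNA of the inactive X chromosome, held 3 and its antisense partner Tsix 6. X-linked models were less often above the background than autosomal models, 40.2% (37.1 to 43.4) of 960 against 63.2% (62.5 to 63.8) of 19841. Among protein-coding models these shares were 51.6% (47.8 to 55.4) and 68.9% (68.2 to 69.6). Median body length was 15995 bp for the X-linked and 18706 bp for the autosomal protein-coding models. The part of length in these shares was not tested. X-linked genes still included high bodies: Tmsb4x, the actin-sequestering thymosin beta 4, held 26.5 RPKM and Flna 15.7 RPKM.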
